A study of Mus musculus with 6 samples.

Results

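Saa3, Hp, Orm1, Orm2, Cp, Serpina3n, Itih4 and Il1rn encode secreted proteins of the acute-phase response that fat tissue is known to make. They were taken from the deposited table by their gene symbols, 8 of the 21456 genes listed. All 8 had a mean of at least 10 normalized counts over the 6 mice, as had 16157 genes in all. A normalized count is the number of reads of a gene in a mouse, divided by a size factor for that mouse.

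The RNA came from white adipose tissues (WATs) of 3 control mice and 3 Ntsr2 AKO mice on chow. Control mice were Ntsr2 flox/flox, and Ntsr2 AKO mice were Adipoq-cre::Ntsr2 flox/flox, so that all 6 mice carried the floxed alleles of this neurotensin receptor gene and only the Ntsr2 AKO mice carried Cre. Adipoq drives Cre in adipocytes of white and brown fat alike, and the other cells of the tissue keep the gene. The libraries were made from whole tissue, the fat depot of this experiment is not named, and the labels give the tissue as Adipose and give no age or sex. Each sample was taken as 1 mouse and is called here by its group and its number (3, 4 or 5). As the labels name no animals, the p-values measure the spread between these samples, part of which may be technical. Fewer cells of a type and less RNA per cell cannot be told apart in such tissue.

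In the acute-phase response, cytokines of the IL-6, IL-1 and TNF families act through their receptors on STAT3, C/EBP and NF-kappaB factors, and the liver then releases a set of plasma proteins that bind iron, heme or lipids or that inhibit proteases. Fat is a second source of several of them, haptoglobin, serum amyloid A3 and orosomucoid among the best known, and adipocytes, macrophages and stromal cells of the tissue can all contribute. The members differ in role. Serpina3n and Itih4 belong to families of protease inhibitors or hyaluronan-binding proteins, Il1rn encodes the antagonist of the IL-1 receptor, Hp and Cp handle hemoglobin and iron or copper, Orm1 and Orm2 encode carriers of lipids and drugs, and Saa3 encodes an apolipoprotein that circulates little and acts locally.

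Positions are from GENCODE release M21 on GRCm38, the build that the labels name as mm10. Each member is a protein-coding gene with 1 locus. Serpina3n is on chromosome 12 (plus strand, 104406729 to 104414329), with 5 exons of which 4 hold coding sequence, within the cluster of Serpina3 relatives. Saa3 is on chromosome 7 (minus strand, 46711998 to 46715700), with 4 exons, beside Saa1 and Saa2. Orm1 (chromosome 4, 63344560 to 63348163) and Orm2 (63362449 to 63365878) lie on the plus strand on either side of Orm3, each with 6 exons. Hp is on chromosome 8 (minus strand, 109575128 to 109579172), Cp on chromosome 3 (plus strand, 19957054 to 20009145), Itih4 on chromosome 14 (plus strand, 30886476 to 30902353) and Il1rn on chromosome 2 (plus strand, 24336853 to 24351494).

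Windows of 250 bases before the transcription start were available from RefSeq (GRCm38.p6) for 6 of the 8 members. They were searched on both strands for motifs of the factors of this response. Hp and Orm1 had no window and were not searched. The 2 shown here belong to the member whose groups did not overlap and to Saa3, the member with the largest coefficient of variation within both groups. The Serpina3n window, chr12:104406458-104406707 on the plus strand, holds a match to the glucocorticoid receptor half-sites ACANNNTGT, in capitals, from 76 to 68 bases before the start. The Saa3 window, chr7:46715677-46715926 on the minus strand, holds a match to the C/EBP motif TTGCNNAA, read on the opposite strand and in capitals, from 99 to 92 bases before the start.
Serpina3n: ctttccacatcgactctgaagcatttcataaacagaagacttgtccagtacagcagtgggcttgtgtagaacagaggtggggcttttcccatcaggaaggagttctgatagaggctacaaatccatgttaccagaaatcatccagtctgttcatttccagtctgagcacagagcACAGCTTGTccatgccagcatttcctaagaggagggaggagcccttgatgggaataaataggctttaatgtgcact
Saa3: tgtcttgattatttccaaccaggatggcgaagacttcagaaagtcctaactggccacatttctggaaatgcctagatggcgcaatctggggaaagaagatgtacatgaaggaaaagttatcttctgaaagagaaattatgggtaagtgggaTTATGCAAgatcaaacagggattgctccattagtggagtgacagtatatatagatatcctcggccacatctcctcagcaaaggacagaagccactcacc

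The C/EBP motif also occurred in the Orm2 window and in 1 of the 2 Cp windows, and the STAT3 motif TTCNNNGAA in the Itih4 window. The Il1rn windows held none of the 4 motifs searched, and no window of the 6 members searched held the NF-kappaB motif. Of 32851 RefSeq windows of this length, 9.56% held the C/EBP motif, 7.02% the STAT3 motif, 7.25% the NF-kappaB motif and 5.84% the glucocorticoid receptor motif. A match is a stretch of letters and no sign of binding.

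Orm1 and Orm2 are near copies, and the 2 coding sequences agree at 558 of 621 bases (89.9%). Their first 90 coding bases (GENCODE M21) are shown because reads of one gene can only be told from the other where they differ, at the 11 bases in capitals.
Orm1: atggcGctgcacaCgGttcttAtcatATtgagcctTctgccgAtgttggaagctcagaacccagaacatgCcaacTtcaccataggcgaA
Orm2: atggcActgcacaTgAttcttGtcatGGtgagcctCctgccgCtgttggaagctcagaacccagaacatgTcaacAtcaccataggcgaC

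Of the 651 stretches of the shortest read length in the Orm2 transcript, 17 (2.61%) also occur in Orm1, and the other 6 members share none with the relatives compared. The Orm2 reads were 0.259% to 0.831% of the Orm1 reads of the same mouse, so the value of Orm2 is uncertain: a small share of Orm1 reads assigned to Orm2 would be as large.

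Each control mouse had 60405373 to 66098226 recovered reads, and each Ntsr2 AKO mouse 54085088 to 56268725. Ntsr2, the targeted gene, had 83.8, 64.0 and 153 normalized counts in control mice and 3.10, 8.29 and 0 in Ntsr2 AKO mice, as the labels require. Transcripts of skeletal muscle, summed over 8 markers, made up 4.05% of the signal of control 5, 0.140% of that of Ntsr2 AKO 4 and 0.307% of that of Ntsr2 AKO 5, and at most 0.00257% in the other 3 mice. Results are therefore also given for those 3 mice, control 3, control 4 and Ntsr2 AKO 3. They are called the mice without muscle transcripts, although their marker sums were 937, 411 and 1452 normalized counts. The lone Ntsr2 AKO mouse among them is assumed to vary as the control mice do. The 8 adipocyte markers summed to between 1118447 and 1649125 normalized counts in control mice and between 1449037 and 1651531 in Ntsr2 AKO mice, in keeping with the labelled tissue. Of 8 hepatocyte markers in the table, 4 stayed under 10 normalized counts in every mouse, and the sum, nearly all of it Alb, lay between 1204 and 2187 in control mice and between 1612 and 2212 in Ntsr2 AKO mice. The 7 macrophage markers overlapped between the groups (24278.5 to 70097.6 and 27086.1 to 58043.3). The 8 neutrophil markers summed to 427 to 912 in control mice but 132 to 540 in Ntsr2 AKO mice, none was at 0 in all mice, and 2 stayed under 10. The 8 mammary and epithelial markers summed to 353 in control 3 and to at most 55.7 in the other mice. The part of these cell types in the values of the members was not tested.

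**Figure D1:**
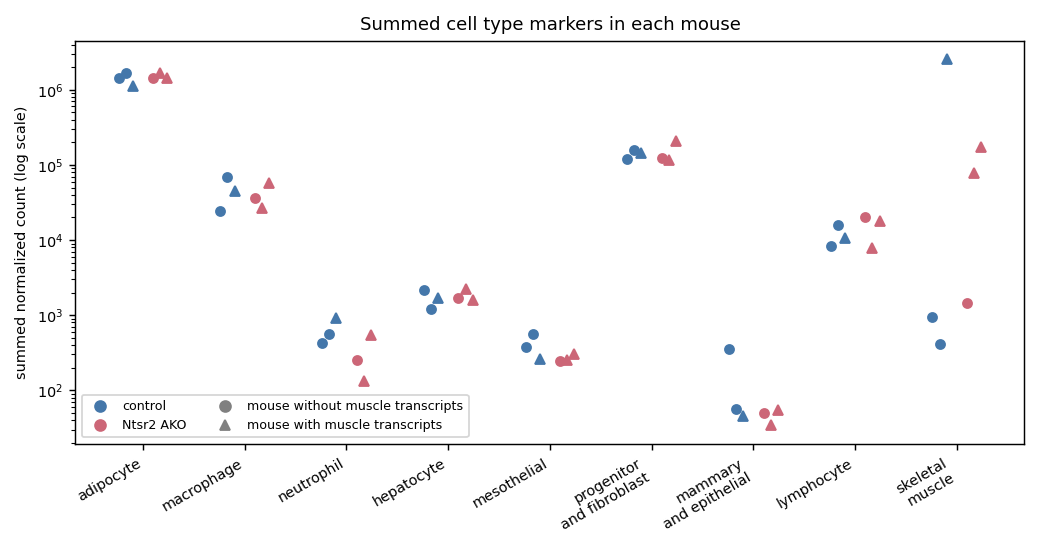
Summed normalized counts of the marker genes of each cell type (log scale) in each of the 6 mice, with triangles for the 3 mice that carried skeletal muscle transcripts. The adipocyte sums lie close together in all mice, while the skeletal muscle sums range from 411 in control 4 to 2567830 in control 5.

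Expression was compared on the scale of log2(normalized count + 1), on which the size of a difference in genes with few reads depends on the pseudocount and on single low mice, with limma over all 16157 genes and Benjamini-Hochberg adjustment. None of the 8 members passed an adjusted p of 0.05 with limma, edgeR or DESeq2. Over all genes DESeq2 called 1.36%, edgeR 0 and limma 1 gene (0.00619%), which was Egr1, named here because of its value. At an unadjusted p under 0.05, limma called 1 member, Serpina3n, which was lower in Ntsr2 AKO mice. Of all genes it called 8.35% at that level, 5.27% lower and 3.08% higher, and edgeR called 8.19%. Serpina3n was also the only member whose groups did not overlap, against 15.0% of all genes, 8.16% with every Ntsr2 AKO mouse lower and 6.82% with every Ntsr2 AKO mouse higher. The log2 difference was below 0 for 6 members and above 0 for 2, with a median of -0.35, while 51.0% of all genes were below 0 and their median was -0.01. One member among 8 is too few to set against these shares.

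**Figure D2:**
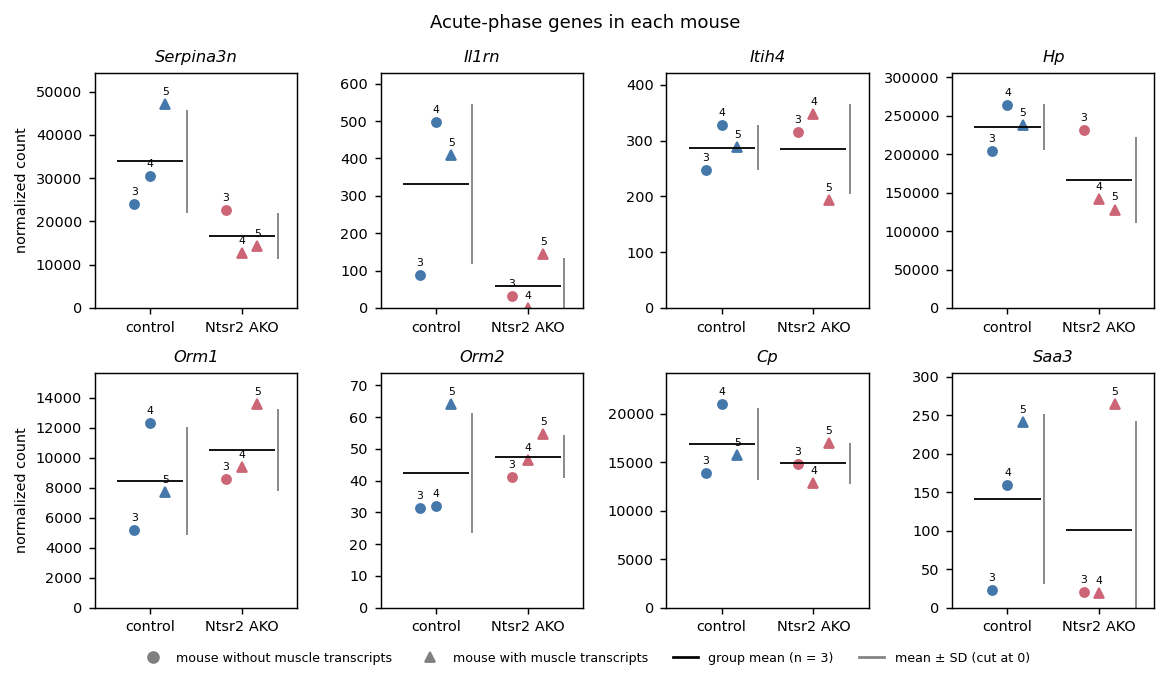
Normalized counts of the 8 members in each mouse (points numbered 3, 4 and 5), with the mean of each group (black line) and the SD (grey line, cut at 0), and triangles for mice with skeletal muscle transcripts. The 3 Ntsr2 AKO mice lie below the 3 control mice for Serpina3n, and the groups overlap for the other 7 genes.

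Serpina3n, a serine protease inhibitor of the antichymotrypsin family, was one of the abundant members and had a lower mean in Ntsr2 AKO mice. Its normalized counts were 24105.5, 30493 and 47188 in control mice and 22599, 12670 and 14347 in Ntsr2 AKO mice. The highest Ntsr2 AKO mouse lay just under the lowest control mouse, and these 2 mice carry almost no muscle transcripts. The means were 33929 ± 11919 (SD, n = 3) and 16539 ± 5315 (SD, n = 3), 0.487 times the control mean. On the log2 scale the difference was -1.03 (standard error 0.31, 95% interval -1.76 to -0.29), with an unadjusted p of 0.0136 and an adjusted p of 0.523 in limma. In DESeq2 the adjusted p was 0.0753. The difference was -0.26 (unadjusted p = 0.467, limma) in the 3 mice without muscle transcripts, and with any 1 mouse left out it lay between -1.27 and -0.76, the unadjusted p rising above 0.05 only without Ntsr2 AKO 4 (0.0511).

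Il1rn, whose product occupies the IL-1 receptor without activating it, had the largest difference of the members and also one of the widest spreads. It had 89.3, 496 and 410 normalized counts in control mice and 33.0, 0 and 144 in Ntsr2 AKO mice. Control 3 lay below Ntsr2 AKO 5, so the groups overlapped. Ntsr2 AKO 4 was at 0, which by counting error allows up to 3 reads or 3.11 normalized counts. This bound takes the value as a direct count of reads, but the authors' counts came from StringTie output. The means were 332 ± 214 (SD, n = 3) and 58.9 ± 75.3 (SD, n = 3), 0.178 times the control mean. Limma gave a log2 difference of -3.96 (standard error 1.76, 95% interval -8.14 to 0.23, limma adjusted p = 0.601). Its size rested on Ntsr2 AKO 4, without which it was -1.91, and on the scale used, since edgeR gave -2.48 and DESeq2 -2.49 (adjusted p = 0.696). The log2 difference was -2.64 in the 3 mice without muscle transcripts.

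The agonist at the same receptor, Il1b, had 42.3, 27.9 and 76.7 normalized counts in control mice and 53.7, 0 and 38.5 in Ntsr2 AKO mice. Both genes were thus at 0 in Ntsr2 AKO 4. The log2 ratio of Il1rn to Il1b within a mouse was 1.06, 4.11 and 2.40 in control mice and -0.68, 0 and 1.87 in Ntsr2 AKO mice. Ntsr2 AKO 5 lay above control 3, and the ratio of 0 in Ntsr2 AKO 4 compares 2 genes that were both at 0. The mean ratio was lower by -2.13 in Ntsr2 AKO mice, from 2.52 ± 1.53 (SD, n = 3) to 0.40 ± 1.32 (SD, n = 3), with a two-sided exact permutation p of 0.20, where 3 mice against 3 allow no p below 0.10.

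Itih4, of the inter-alpha-trypsin inhibitor heavy chain family, had nearly equal means in the groups. Its normalized counts were 247, 328 and 288 in control mice and 315, 347 and 194 in Ntsr2 AKO mice, with Ntsr2 AKO 4 highest and Ntsr2 AKO 5 lowest of all 6. The log2 difference was -0.04 (standard error 0.27, 95% interval -0.69 to 0.61, limma adjusted p = 0.974). The sign was not stable, as the difference was 0.21 without Ntsr2 AKO 5 and 0.15 in the 3 mice without muscle transcripts.

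Hp, whose product haptoglobin binds free hemoglobin, was the most abundant member by far. It had 203639, 263952 and 238223 normalized counts in control mice and 230865, 141214 and 128059 in Ntsr2 AKO mice. Ntsr2 AKO 4 and 5 lay below every control mouse, and Ntsr2 AKO 3 lay between control 3 and control 5. The means were 235271 ± 30264 (SD, n = 3) and 166713 ± 55945 (SD, n = 3), 0.709 times the control mean. This was a log2 difference of -0.54 (standard error 0.29, 95% interval -1.23 to 0.15, limma adjusted p = 0.643). It was -0.01 in the 3 mice without muscle transcripts, and -0.80 without Ntsr2 AKO 3 (unadjusted p = 0.0253, limma).

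Orm1, the orosomucoid of highest expression here, had a higher mean in Ntsr2 AKO mice, within the spread of the groups. Its normalized counts were 5212, 12330.5 and 7733 in control mice and 8552, 9366 and 13605 in Ntsr2 AKO mice. Control 4 had more than Ntsr2 AKO 3 and 4. The means of 8425 ± 3609 (SD, n = 3) and 10507.6 ± 2713 (SD, n = 3) gave a log2 difference of 0.38 (standard error 0.33, 95% interval -0.41 to 1.16, limma adjusted p = 0.772). It was 0.70 without control 4, 0.08 without control 3 and 0.09 in the 3 mice without muscle transcripts.

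Orm2 had 31.3, 32.0 and 64.3 normalized counts in control mice and 41.3, 46.6 and 54.7 in Ntsr2 AKO mice, all of them small beside Orm1. Their log2 difference was 0.23 (standard error 0.43, 95% interval -0.79 to 1.25, limma adjusted p = 0.900). Control 5, the mouse with the most muscle transcripts, was the highest, and without it the difference was 0.56. In the 3 mice without muscle transcripts the difference was 0.37.

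Cp encodes ceruloplasmin, a copper-carrying ferroxidase that lets iron leave cells. It had 13907, 21040 and 15715 normalized counts in control mice and 14819, 12820 and 17008 in Ntsr2 AKO mice. The groups overlapped, with Ntsr2 AKO 5 above 2 of the control mice. The log2 difference was -0.17 (standard error 0.19, 95% interval -0.63 to 0.29, limma adjusted p = 0.819). It was 0.00 without control 4 and -0.21 in the 3 mice without muscle transcripts.

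Saa3, the serum amyloid A of macrophages and fat, varied more between mice of 1 group than between the groups. It had 23.0, 160 and 242 normalized counts in control mice and 20.6, 18.7 and 265 in Ntsr2 AKO mice. One mouse of the control group and 2 of the Ntsr2 AKO group lay near 20 while the other 3 lay at or above 160. Of the mice with muscle transcripts, control 5 and Ntsr2 AKO 5 were the 2 highest and Ntsr2 AKO 4 was the lowest of all. The means were 142 ± 111 (SD, n = 3) and 101 ± 142 (SD, n = 3). The log2 difference was -1.02 (standard error 1.26, 95% interval -4.01 to 1.98, limma adjusted p = 0.834). It ranged from -2.25 without Ntsr2 AKO 5 to -0.36 without control 5, and edgeR gave -0.46. In the 3 mice without muscle transcripts it was -1.52.

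**Figure D3:**
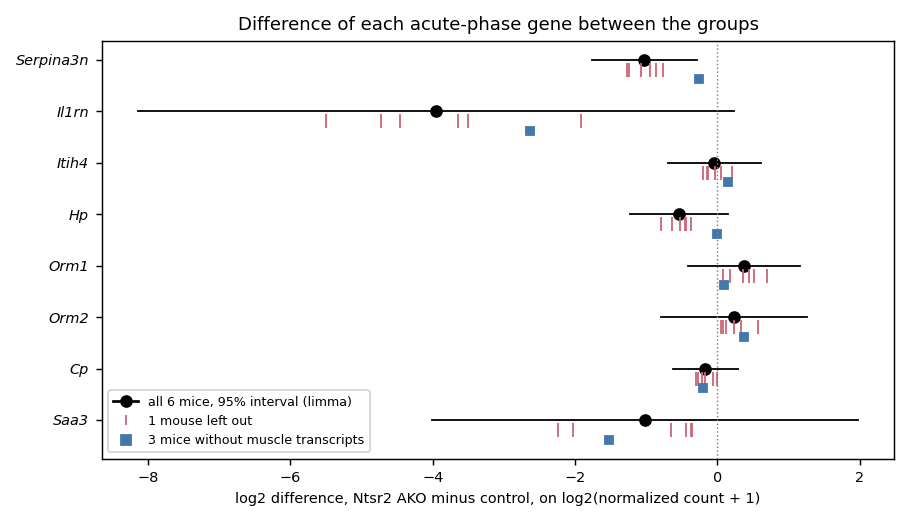
Difference of each member between Ntsr2 AKO and control mice on the log2(normalized count + 1) scale, with the 95% interval of limma over 6 mice (black), the values with 1 mouse left out (red ticks) and the value in the 3 mice without muscle transcripts (blue squares). The interval of Serpina3n, -1.76 to -0.29, leaves out 0, and its value in those 3 mice is -0.26.

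Per kilobase of the longest coding transcript, the control means were ordered Hp (174923 ± 22501 normalized counts per kilobase, SD, n = 3), Serpina3n (16438 ± 5775), Orm1 (10871 ± 4657), Cp (3700 ± 812), Saa3 (255 ± 199), Il1rn (167 ± 108), Itih4 (81.4 ± 11.5) and Orm2 (54.9 ± 24.3). Hp stood above Serpina3n, Orm1 above Cp and Cp above Saa3 in 6 of 6 mice. Serpina3n stood above Orm1 in only 2 of 6, control 3 and control 5. Saa3 stood above Il1rn in 5, Il1rn above Itih4 in 3 and Itih4 above Orm2 in 4. The order of these neighbours was thus not the same in all mice, and it was not tested. Hp was at the 99.9th percentile of the 16030 genes with a length, Serpina3n and Orm1 at the 98.0th and Cp at the 93.0th, whereas Saa3, at the 48.4th, and the other 3, down to the 31.9th, were genes of middling or low level. Together the 8 members took 0.443%, 0.528% and 0.489% of the signal of the control mice and 0.491%, 0.315% and 0.305% of that of the Ntsr2 AKO mice, most of it Hp.

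Across the 6 mice the members did not move as 1 set. Pearson's r of the log2 values was 0.86 for Hp and Serpina3n, 0.73 for Serpina3n and Il1rn, 0.76 for Cp and Il1rn, and 0.74 for Saa3 and Il1rn. It was -0.30 for Hp and Orm1, -0.32 for Serpina3n and Orm1 and -0.43 for Saa3 and Itih4. These are descriptions over 6 mice that share the groups and the muscle transcripts. Among genes with a mean of at least 100, the pattern most like that of Serpina3n was that of Rrp8 (r = 0.993), Naa15 (0.992) and Eif3j2 (0.991), and that of Hp was close to Pxk (0.993) and Rbm14 (0.991). Il1rn ran nearest to Emp3 (0.992), Lilrb4 (0.991) and Itgb3 (0.990), and Saa3 to Ly6c1 (0.989), Mndal (0.978) and Pyhin1 (0.977). Orm1 ran nearest to Lamp1 (0.996), Aif1 (0.994) and Sdhd (0.993), Cp to Themis2 (0.998), Gm6793 (0.994) and Ddx50 (0.991), and Itih4 to Dennd5b (0.988), Dbt (0.987) and 5830444B04Rik (0.979). For Orm2 they were Kcnj12 (0.998), Smc6 (0.993) and Clcn1 (0.989), of which Kcnj12 and Clcn1 were at 0 in control 3 and control 4 and highest in control 5. The summed muscle markers were also lowest in control 3 and control 4, though not 0, and highest in control 5. The r values given are among the highest of 12565 genes compared over only 6 mice.

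The remaining genes of the response were counted in 6 lists by role, 100 genes of which 91 were in the table and 77 were tested. With limma 0 of the 77 passed the adjusted threshold. At an unadjusted p under 0.05 (limma), 19 were lower and 1 was higher in Ntsr2 AKO mice, where 5.27% and 3.08% of all genes were. The groups did not overlap for 20 genes lower and 2 higher, where 8.16% and 6.82% of all genes did not. The lists were chosen with earlier results of these data known, so these counts are no test against those shares. In DESeq2, 8 were lower and 1 higher at an adjusted p under 0.05, where 0.947% of all genes were lower and 0.408% higher. These are the genes given below with a DESeq2 adjusted p, and no other gene of the 77 passed in DESeq2. The log2 difference was below 0 for 56 and above 0 for 21, with a median of -0.40. In the 3 mice without muscle transcripts, 5 genes had an unadjusted p under 0.05 in place of 20 (Osm, Tnf, Bcl3 and Hmox1 lower and Il1r2 higher, of which Osm and Il1r2 were named after their values were seen). Over all genes the calls were also fewer in these mice, 210 lower and 99 higher in place of 852 and 497.

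**Figure D4:**
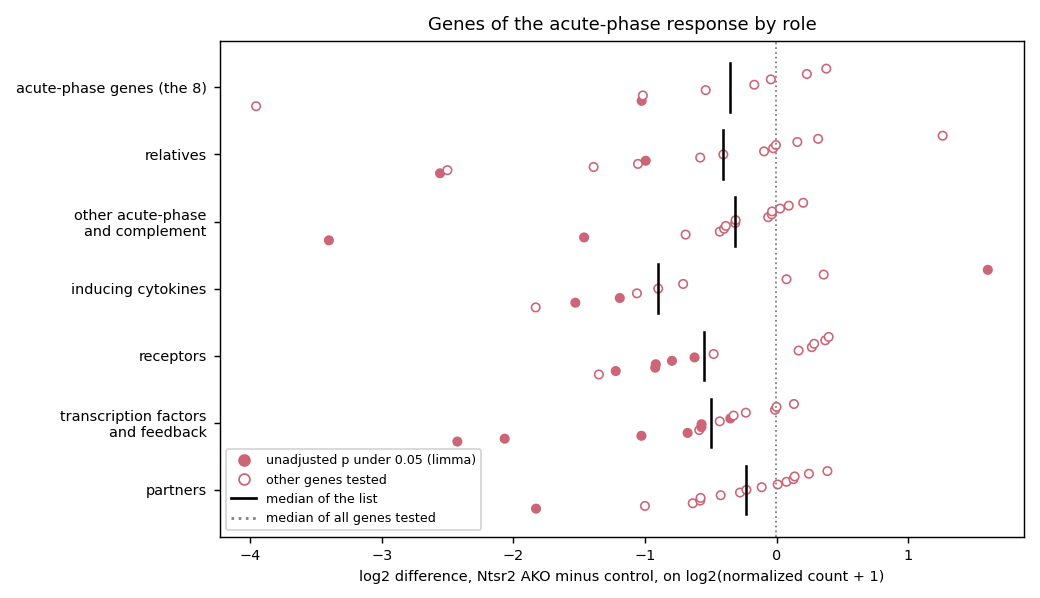
Difference between Ntsr2 AKO and control mice of each gene tested, by role, with filled points for an unadjusted p under 0.05 (limma), a black line at the median of each list and a dotted line at the median of all genes. The medians of the 7 rows lie between -0.90 and -0.23, and Lif, at 1.61, is the one filled point to the right. The median of the cytokines was 0.075 with a minimum mean of 50, and that of the partners was 0.001 without control 4. The medians of the other lists stayed below 0 in all alternatives.

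Cytokines that start the response lay in both directions. Of 9 tested, 2 were lower and 1 higher at an unadjusted p under 0.05 (5.27% and 3.08% of all genes). Lif, an IL-6 family cytokine, had 38.7, 33.0 and 33.6 normalized counts in control mice and 83.6, 145 and 105 in Ntsr2 AKO mice. Its groups were far apart, with a log2 difference of 1.61 (standard error 0.34, adjusted p = 0.499 in limma and 0.00892 in DESeq2). Clcf1, of the same family, had 300.03, 348 and 581 against 166, 179 and 169, a log2 difference of -1.19 (standard error 0.28, adjusted p = 0.520 in limma and 0.0171 in DESeq2). Tnf had 69.9, 58.8 and 61.4 against 14.5, 16.6 and 39.5, and its log2 difference was -1.53 (limma adjusted p = 0.546). In the 3 mice without muscle transcripts the differences were 1.20 for Lif, -0.95 for Clcf1 and -2.08 for Tnf. Il6, named after its values were seen, stayed at or below 26.9 normalized counts in every mouse.

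Receptors gave 5 of 12 genes lower and 0 higher at an unadjusted p under 0.05 (5.27% and 3.08% of all genes). Their median log2 difference was -0.55, and -0.27 in the 3 mice without muscle transcripts. Il6ra, the ligand-binding chain of the IL-6 receptor, had 2333, 2095 and 2387 normalized counts in control mice and 1718, 1072 and 938 in Ntsr2 AKO mice. Its groups did not overlap (log2 difference -0.92, standard error 0.23, limma adjusted p = 0.522). Osmr, the oncostatin M receptor, had 5594, 4323 and 8224 against 3897, 2861 and 2617, and Tnfrsf1b, a TNF receptor, had 1901, 2071 and 1752 against 1409, 1037 and 1289, neither with overlap. Their log2 differences were -0.92 (standard error 0.26, limma adjusted p = 0.522) and -0.62 (standard error 0.15, limma adjusted p = 0.520). In the 3 mice without muscle transcripts the differences were -0.36 for Il6ra, -0.34 for Osmr and -0.49 for Tnfrsf1b. Il1r1, the signalling receptor at which the Il1rn product competes, was named after its values were seen and had a log2 difference of -1.22 (standard error 0.36, limma adjusted p = 0.522), with Ntsr2 AKO 3 above control 4.

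Transcription factors and feedback genes gave 7 of 14 lower and 0 higher at an unadjusted p under 0.05 (5.27% and 3.08% of all genes). Their median log2 difference was -0.50, and -0.28 in the 3 mice without muscle transcripts. Stat3, which carries the IL-6 signal, had 13545, 12500 and 17986 normalized counts in control mice and 10151, 6171 and 5736 in Ntsr2 AKO mice. The groups did not overlap, and the log2 difference was -1.03 (standard error 0.25, adjusted p = 0.520 in limma and 0.0321 in DESeq2). Bcl3, a nuclear partner of NF-kappaB, had 1383, 980.1 and 1460.03 against 536, 151 and 329, a log2 difference of -2.07 (standard error 0.45, adjusted p = 0.499 in limma and 0.00339 in DESeq2). Nfkb2, an NF-kappaB subunit, had 1670.4, 1404 and 1446 against 1022, 881 and 921, a log2 difference of -0.68 (standard error 0.13, adjusted p = 0.499 in limma and 0.00418 in DESeq2). In the 3 mice without muscle transcripts the differences were -0.36 for Stat3, -1.12 for Bcl3 and -0.58 for Nfkb2. Socs3, the feedback inhibitor that STAT3 induces, was named after its values were seen and had 4009, 1190 and 2698 against 853, 189 and 511. Its log2 difference was -2.43 (standard error 0.64, adjusted p = 0.522 in limma and 0.00674 in DESeq2).

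**Figure D5:**
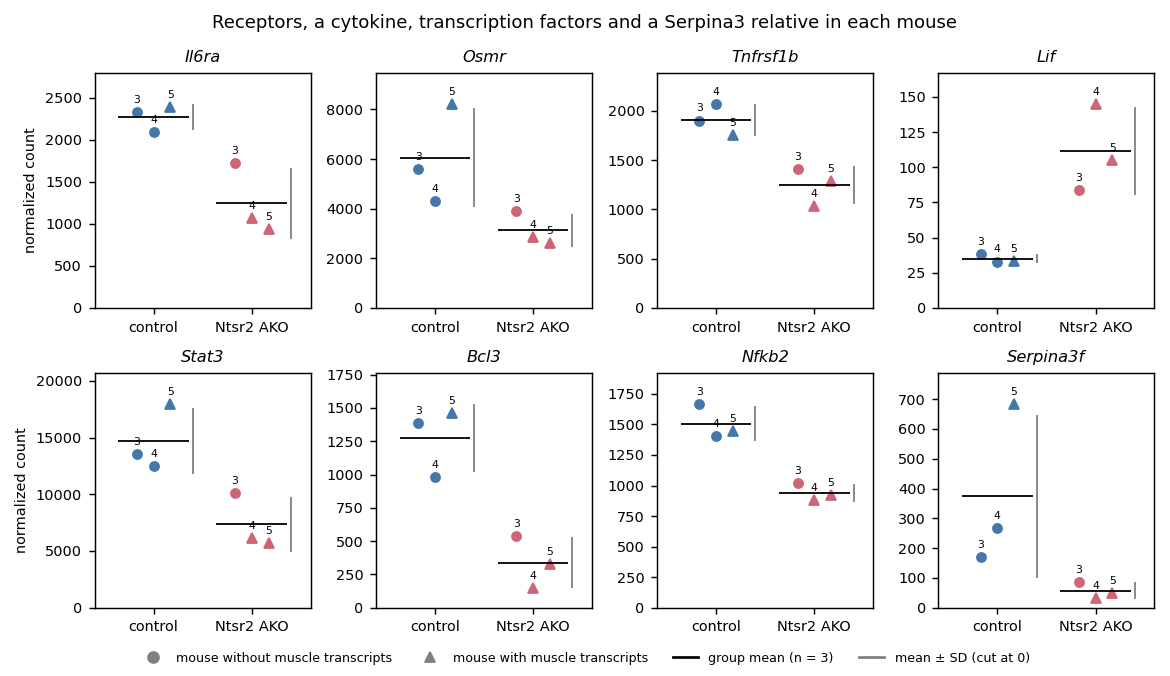
Normalized counts in each mouse of 3 receptors, 1 cytokine, 3 transcription factors and 1 Serpina3 relative named by the rule, drawn as for the members. The 3 Ntsr2 AKO mice lie below the 3 control mice for all but Lif, where they lie above. Each gene drawn was among the 3 of smallest p in its list, which favours separated groups. Of the 77 genes tested, 55 overlapped.

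Among 13 tested relatives of the members, 2 were lower and 0 higher at an unadjusted p under 0.05 (5.27% and 3.08% of all genes). Both of the 2 were from the Serpina3 cluster. Serpina3f had 169, 267 and 685 normalized counts in control mice and 87.7, 33.2 and 49.6 in Ntsr2 AKO mice. Like Serpina3n, it was highest in control 5 and in each Ntsr2 AKO mouse below every control mouse (log2 difference -2.56, standard error 0.59, adjusted p = 0.520 in limma and 0.00233 in DESeq2). The difference of Serpina3f was -1.27 (unadjusted p = 0.116, limma) in the 3 mice without muscle transcripts. Serpina3g had 336, 527 and 234 against 207, 139 and 180.1, a log2 difference of -0.995 (standard error 0.34, limma adjusted p = 0.557). That of Serpina3g was -1.02 in the 3 mice without muscle transcripts. Serpina3c had 13309, 13732.5 and 17694 against 13938, 8964 and 11149, and its groups overlapped (log2 difference -0.41, standard error 0.20, limma adjusted p = 0.619). Serpina3f, Serpina3g and Serpina3i share a few such stretches of read length, so a part of their reads may be split between them. Heph, a ferroxidase like Cp, and Itih5, both named after their values were seen, had log2 differences of -0.10 and -0.01.

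Of 14 other acute-phase and complement genes tested, 2 were lower and 0 higher at an unadjusted p under 0.05 (5.27% and 3.08% of all genes). Ptx3, the long pentraxin that recognizes microbes, had 6279, 747 and 5405 normalized counts in control mice and 503, 103 and 410 in Ntsr2 AKO mice. The groups did not overlap, though control 4 lay far under the other control mice (log2 difference -3.40, standard error 0.94, adjusted p = 0.522 in limma and 0.0272 in DESeq2). Without control 4 the difference was -4.39, without Ntsr2 AKO 4 it was -2.69, and in the 3 mice without muscle transcripts it was -2.11 (unadjusted p = 0.277, limma). Lcn2, which binds bacterial iron carriers, had 66.3, 58.8 and 173 against 29.9, 20.7 and 48.6 (log2 difference -1.46, limma adjusted p = 0.565). The lipopolysaccharide co-receptor gene Cd14 had a log2 difference of -0.43 (limma adjusted p = 0.624) with overlap. The complement gene C3, named after its values were seen, had a log2 difference of 0.03 (standard error 0.23).

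The last list held 15 tested genes whose products bind, take up or clear the members' proteins and their cargo. Where 5.27% of all genes were lower and 3.08% higher at an unadjusted p under 0.05, 1 of these 15 was lower and 0 higher. That gene was Hmox1, which encodes a heme-degrading enzyme, with 3428, 4366 and 15533 normalized counts in control mice and 2205, 991 and 2371 in Ntsr2 AKO mice. The groups did not overlap, and control 5 was by far the highest (log2 difference -1.83, standard error 0.61, adjusted p = 0.557 in limma and 0.0260 in DESeq2). It was -1.16 without control 5 and -0.81 in the 3 mice without muscle transcripts (unadjusted p = 0.0457, limma). Cd163, a receptor of macrophages, was named after its values were seen and had a log2 difference of 0.25 (standard error 0.23, limma adjusted p = 0.787). Scarb1, a receptor for serum amyloid A, and Tlr4 had log2 differences of -0.43 and -0.58 with overlap (limma adjusted p = 0.600 and 0.616).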

How the data were processed

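RNA-seq was performed on adipose tissue of 3 control and 3 Ntsr2 AKO mice. Per the study's methods and the submitters' processing notes, the authors purified poly-A RNA, trimmed reads with Trimmomatic, aligned them to mm10 with HISAT2 and turned StringTie output into read counts. The annotation and the tool versions are not given in the sources used here. What the authors deposited is a table of signal values, in which each read count is divided by 1 size factor per mouse (normalized counts). Whole reads were recovered from the steps of the low values (100% whole within 0.01 reads), and no 2 columns were identical.

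The members and gene lists were chosen with earlier results of these data known. limma 3.58.1 (R 4.3.3, eBayes with trend) was fitted to log2(normalized count + 1) of all genes with a mean of at least 10, with p-values adjusted by Benjamini-Hochberg and a limit of 0.05, since the table holds no counts. The study used DESeq2. Here DESeq2 1.42.0 and edgeR 4.0.16 (quasi-likelihood test with TMM) were alternatives on the recovered reads of those genes, where DESeq2 called 219 genes and edgeR 0. Other alternatives were pseudocounts of 0.1 and 5, a minimum mean of 50 or none, quantile and TMM scaling, no trend, the replicate block and the omission of each mouse. The 3 mice without muscle transcripts and a muscle covariate were added after the data were seen. Named genes were all members, Ntsr2, Il1b, the 3 genes of smallest p in each list, and the 3 genes nearest to each member in pattern, of which 1 is not reported here. Other genes are marked as named after their values were seen. Procedures were tested on simulated data. Intervals and floors on reads cover counting error only. They take the recovered values as direct counts of reads, although these came from StringTie output. Serpina3h, Itih1, Apcs, Fga, A2m, Hamp, C1s1, Il22 and Cebpd were not analysed here.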

Additional observations from a re-analysis of the deposited data

How the results depend on the processing

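None of the 8 members passed an adjusted p of 0.05 in any of the 18 alternatives (limma, edgeR or DESeq2), and an unadjusted p under 0.05 was reached by 0 to 2 of them. Saa3, Hp, Orm1, Orm2, Serpina3n and Il1rn kept their direction in all alternatives in which they were tested. Cp ranged from -0.30 to 0.000013 with single mice left out, the latter without control 4. Itih4 changed sign in edgeR (0.000236), in the 3 mice without muscle transcripts (0.15) and on leaving out single mice (-0.21 to 0.21), Il1b in those 3 mice (0.63) and without Ntsr2 AKO 4 (with single mice left out, -2.87 to 0.015), and Serpina3c in those 3 mice (0.044). The cause was not tested. Over the whole table limma called 1 gene, against 0 without a filter, with TMM scaling, without the trend, with the replicate block, in edgeR (1323 at an unadjusted p under 0.05), with any 1 mouse left out (0 to 0), in the 3 mice without muscle transcripts and with the muscle covariate, and 219 in DESeq2. Of the other genes of the response 0 passed, against 9 in DESeq2. Ntsr2 passed in DESeq2 alone (-4.72, adjusted p = 1.21e-04). At an unadjusted p under 0.05, 852 genes were lower and 497 higher, but 612 and 633 after quantile normalization. With TMM scaling, where the pseudocount stands for more reads, Il1rn was at -1.71. Same-numbered mice are different animals, and the numbers were not taken as pairs in the main test. The deviations of same-numbered mice correlated at 0.45, -0.24 and 0.41, and those of mice with different numbers at -0.52 to 0.26. What mice of the same number may share was not tested. With the replicate block 0 members passed, and the log2 ratio of Il1rn to Il1b (-2.13) had an exact sign-flip p of 0.25, the smallest that 3 pairs allow. For single mice left out it ranged from -2.86 to -1.33. Counting error adds to the spread between mice for genes with few reads, such as Orm2 with 31 to 67 reads per mouse.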

Other observations

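Within the Orm locus, Orm1 held 93.5% to 96.9% of the reads of Orm1, Orm2 and Orm3 in each of the 6 mice, and Orm3 held 2.66% to 6.03%. The share of Orm3 was highest in Ntsr2 AKO 4 (6.03%, 95% exact interval 5.57% to 6.53%) and control 3 (5.68%, 95% exact interval 5.11% to 6.29%), 1 mouse of each group, and lay between 2.66% and 3.04% in the other 4 mice. The Orm3 normalized counts were 316, 364 and 245 in control mice and 241, 604 and 373 in Ntsr2 AKO mice (log2 difference 0.32, limma adjusted p = 0.819).

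Within the Saa locus, Saa3 held 65.8% to 97.0% of the reads of Saa1, Saa2, Saa3 and Saa4. Saa1 and Saa2, the forms that liver makes, had most reads in control 5, with 43 and 80 reads, while Saa1 had 0 reads in the other 5 mice and Saa2 had 0 to 12. Control 5, the mouse with the most muscle transcripts, also had 242 normalized counts of Saa3, close to the 265 of Ntsr2 AKO 5, in which neither Saa1 nor Saa2 had a read. These values were read after the members were known and were not tested.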
